A study of Mus musculus with 8 samples.

Results

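Laminins, nidogens and perlecan make up most of the framework of basement membranes outside the collagens, and Smoc1 is a glycoprotein found there. Their RNA was followed in C57BL6J mice, in the outflow vein of an arteriovenous fistula. The 10 genes are the rows of the deposited table with the symbols Lama2, Lama4, Lama5, Lamb1, Lamb2, Lamc1, Nid1, Nid2, Hspg2 and Smoc1, out of 23358 gene rows. All 10 had a mean of at least 1 RPKM (reads per kilobase of the gene, scaled to one mega-read of the library) over the 8 samples and were tested among 12129 genes.

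All mice had a chronic kidney disease model, and the fistula between carotid artery and jugular vein was made 28 days after it. The MSC group of 4 samples had 250000 mesenchymal stem cells (MSCs) laid on the outside of the outflow vein, taken from a sex-matched C57 donor mouse, the vehicle group of 4 had vehicle, and veins were taken at 3 days. Whether every sample is a separate animal is not in the labels, and p-values cover only the spread among the 8 samples, which may be technical. RNA left from donor cells cannot be told apart from that of the recipient.

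A basement membrane is a thin sheet of matrix under endothelium and around smooth muscle cells, pericytes, skeletal muscle fibres, Schwann cells and adipocytes. Each laminin is a trimer of an alpha, a beta and a gamma chain, which polymerises at the cell surface. Nidogens link that layer to the collagen IV network, perlecan (Hspg2) is a heparan sulfate proteoglycan that binds both, and Smoc1 is a calcium-binding glycoprotein of the SPARC family found at basement membranes. In vessels, endothelial cells make laminins with the Lama4 and Lama5 chains, and Lama2 is the chain of muscle and Schwann cell basement membranes.

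Gene reads recovered from the RPKM steps came to 26.9 to 38.2 mega-reads per sample, and each member had between 273 reads (Smoc1 in MSC replicate 1) and 41633 (Hspg2 in vehicle replicate 1). Vein cells were present by their markers: the summed level of 11 endothelial markers was 637 to 771 RPKM in vehicle and 465 to 792 RPKM in MSC samples, and that of 9 smooth muscle markers 165 to 296 and 225 to 294 RPKM. The summed level of 12 adipocyte markers was lower in all MSC samples, at 447 to 2043 RPKM against 3500 to 5049 RPKM in vehicle samples. Of these markers, Lep and Pparg overlapped between the groups, and none was at 0 in every sample. The sum of 8 skeletal muscle markers went from 4.77 RPKM (vehicle replicate 3) to 652 RPKM (MSC replicate 1), with 491 RPKM in vehicle replicate 1 and 10.7 RPKM in MSC replicate 4. In bulk tissue, fewer cells of a type and less RNA per cell cannot be told apart.

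By level, Nid1 stood first among the members in all 8 samples, with a mean of 75.2 RPKM, above 97.0% of the 19695 genes detected in any sample. Hspg2 (46.1 RPKM), Lamb1 (43.9), Lamc1 (43.3) and Lama4 (39.1) formed a group whose order changed between samples: Hspg2 was above Lamb1 in 4 of 8 samples, and Lamb1 above Lamc1 and Lamc1 above Lama4 in 6 of 8 each. Lamb2 (21.4 RPKM) was below Lama4 and above Nid2 (12.0 RPKM) in all 8 samples, and Nid2 was above Lama5 (7.53 RPKM) in all 8. Smoc1 (5.72 RPKM) and Lama2 (4.61 RPKM) came last. Smoc1 was above Lama2 in 3 of 4 vehicle and 1 of 4 MSC samples, and Lama5 was above Smoc1 in 1 of 4 vehicle and all 4 MSC samples.

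**Figure D1:**
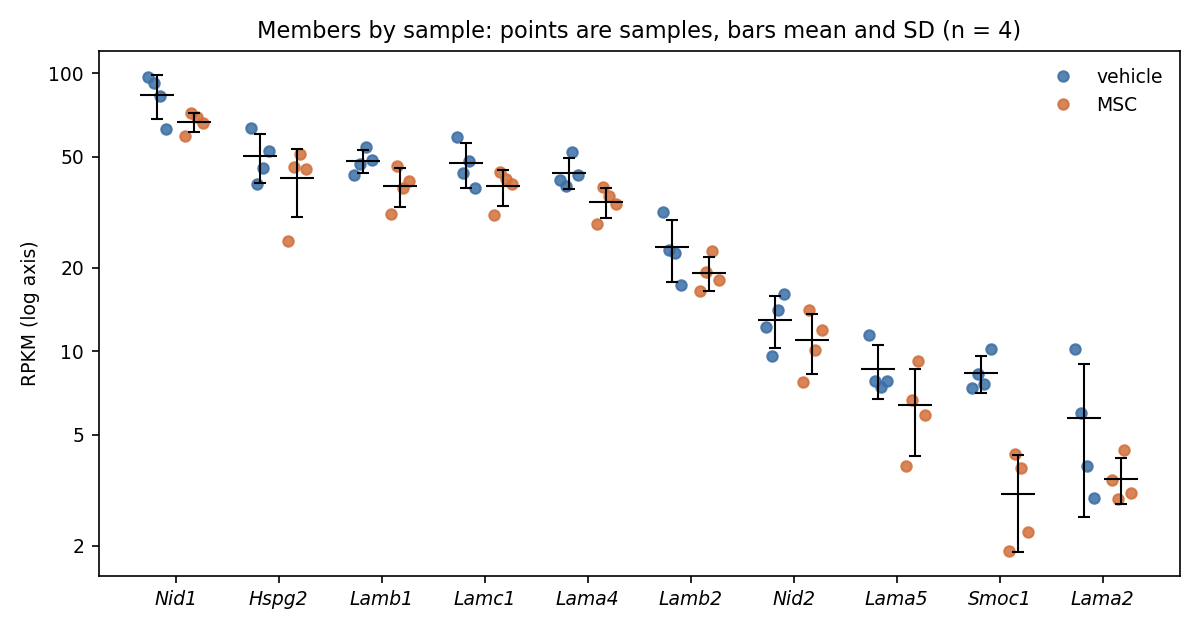
RPKM of the 10 members on a log axis, ordered by their mean over 8 samples. Points are samples, replicates 1 to 4 from left to right within each group, and bars give the mean and SD (n = 4). The Smoc1 points of the 2 groups lie apart, with MSC samples at 1.91 to 4.28 and vehicle samples at 7.37 to 10.2, and those of Lama4 nearly touch.

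Each of the 10 members had a lower mean in MSC than in vehicle veins, and 1 of them, Smoc1, fell past the threshold. The threshold was a limma adjusted p of 0.05 over all genes tested, on log2(RPKM + 1), a scale that understates the change of low genes. It was passed by 0.231% of the 12129 genes, 0.206% in the lower and 0.0247% in the higher direction. Of all genes tested, 40.5% had a log2 fold change below 0. The median log2 fold change was -0.30 over the 10 members, -0.32 over the 6 laminin chains and 0.04 over all genes tested. The other members had values from -0.49 (Lama2) to -0.24 (Nid2), and none of these passed. An unadjusted limma p under 0.05 was found for 4 members, Smoc1, Lama4, Lamb1 and Nid1, and in the lower direction for 6.36% of all genes tested. The groups did not overlap in Smoc1 and Lama4, where 4.17% of all genes tested had no overlap in the lower direction.

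**Figure D2:**
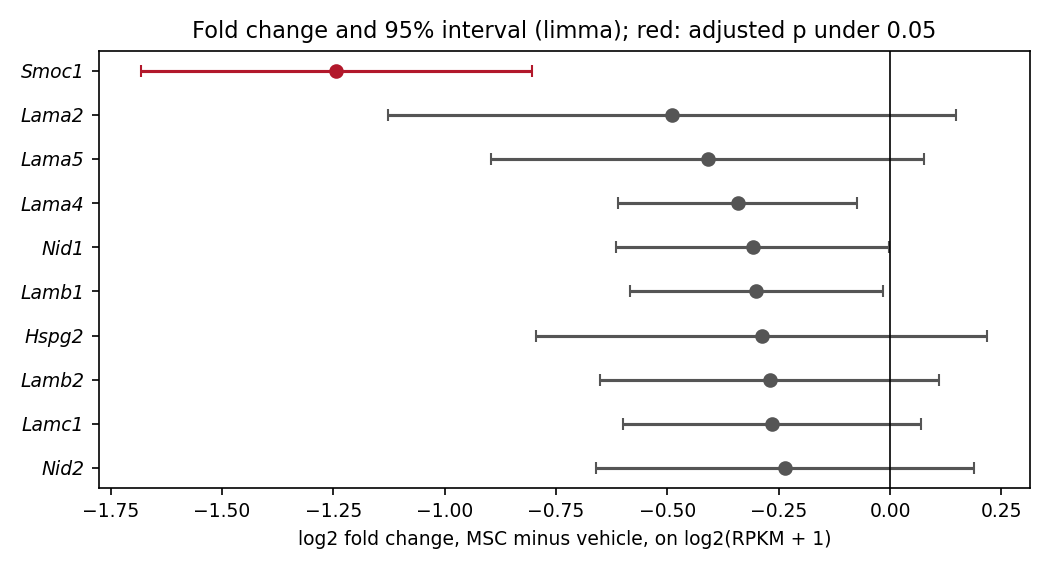
Log2 fold change of each member, MSC minus vehicle, on log2(RPKM + 1), with its 95% interval from limma (n = 4 per group). Smoc1, in red, is at -1.24 and passed the adjusted p threshold. The intervals of Lama4, Lamb1 and Nid1 end just below 0 without passing it, and the other 6 include 0.

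Smoc1, which in mouse is needed for eye and limb development and which modulates BMP signalling, was the member with the largest difference. The gene lies on chromosome 12 at 81026808 to 81186414 (GRCm38, plus strand). In vehicle replicates 1 to 4 it was at 7.37, 8.31, 7.64 and 10.2 RPKM, and in MSC replicates 1 to 4 at 1.91, 4.28, 3.81 and 2.24 RPKM. Every MSC sample was below every vehicle sample, with MSC replicates 1 and 4 the lowest. The means were 8.38 ± 1.28 RPKM in vehicle and 3.06 ± 1.16 RPKM in MSC veins (SD, n = 4 each), a ratio of 0.365. The log2 fold change was -1.24 (SE 0.19, 95% interval -1.68 to -0.80, limma adjusted p = 0.0496).

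That adjusted p lay just under the threshold. Leaving out 1 sample ended the call of Smoc1 in 7 of 8 cases, with limma adjusted p from 0.0514 (without MSC replicate 2) to 0.149 (without MSC replicate 1), and kept it without MSC replicate 3 (0.0229). The log2 fold change stayed between -1.38 and -1.10 in those fits. Against Lamc1, the gamma chain, Smoc1 RNA amounted to 12.5, 19.0, 15.8 and 26.4 per 100 of Lamc1 RPKM in the vehicle replicates and to 6.19, 9.70, 9.19 and 5.596 in the MSC replicates. As with the RPKM of Smoc1 alone, the groups did not overlap in this ratio.

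The adipocyte markers were, as a sum, lower in every MSC sample than in every vehicle sample, as Smoc1 was. Their summed level was 3500, 3719, 3638 and 5049 RPKM in vehicle replicates 1 to 4 and 497, 1484, 2043 and 447 RPKM in the MSC replicates. The highest vehicle sample and the 2 lowest MSC samples were the same for both measures. All 12 adipocyte markers had log2 fold changes below 0, with a median of -2.03, and the groups did not overlap in 10 of them. None passed the adjusted p threshold in limma, and 11 had an unadjusted p under 0.05. Of all genes tested, 40.5% were below 0, 4.17% did not overlap in the lower direction, and 6.36% had such a p in that direction. With the mean log2 level of these markers as a covariate, the log2 fold change of Smoc1 was -0.52 (SE 0.18, limma adjusted p = 0.889). The mean marker level did not overlap between the 2 groups, so that fit extrapolates between groups. In that fit 0 of the 12129 genes tested passed, and 619 had an unadjusted limma p under 0.05. Of 6 pericyte markers, 5 had log2 fold changes below 0, 1 (Rgs5) did not overlap and 0 passed in limma, with 3 at an unadjusted p under 0.05. Their sums were 32.8 to 43.81 RPKM in MSC and 43.93 to 64.9 RPKM in vehicle samples, nearly touching, and Pdgfrb had means of 18.9 RPKM in MSC and 18.1 RPKM in vehicle samples. The part of adipocytes and of pericytes in the Smoc1 difference was not tested.

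The genes most like Smoc1 across the 8 samples, by Pearson correlation of log2(RPKM + 1), were Arxes2 (r = 0.992), Net1 (0.988), the potassium channel gene Kcnk3 (0.987), the nuclear receptor corepressor gene Nrip1 (0.985) and the G protein subunit gene Gnai1 (0.983). These values are a description over 8 samples that share the group difference. All 5 had a lower mean in MSC than in vehicle veins, from 13.5 to 2.88 RPKM for Arxes2 and from 8.48 to 5.66 RPKM for Nrip1. Arxes2 can share reads with its near-identical copy Arxes1, so its value is uncertain.

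Among the laminin alpha chains, Lama4 had the highest level. This chain lacks the domain that lets most laminins polymerise by their alpha arm, and it is a main alpha chain of endothelial, muscle and adipocyte basement membranes. Lama4 (chromosome 10, 38965515 to 39110188, plus strand) was at 41.3, 39.2, 51.9 and 43.1 RPKM in the vehicle replicates and at 28.8, 39.0, 36.05 and 33.8 RPKM in the MSC replicates. The highest MSC sample, replicate 2, lay just under the lowest vehicle sample, also replicate 2. The means were 43.9 ± 5.57 and 34.4 ± 4.31 RPKM (SD, n = 4 each). The difference for Lama4 was -0.34 on the log2 scale (SE 0.12, 95% interval -0.61 to -0.07) and did not pass (limma adjusted p = 0.210). No left-out sample made the call pass. Leaving out a sample cannot make groups overlap that lie apart, so the small gap was not tested that way.

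Lama5, the alpha chain that with Lama4 builds mature endothelial basement membranes, was at 11.5, 7.84, 7.41 and 7.82 RPKM in the vehicle replicates and at 3.86, 6.69, 9.24 and 5.88 RPKM in the MSC replicates. The groups overlapped, with vehicle replicate 1 apart at the top and MSC replicate 3 above the other 3 vehicle samples. Its log2 fold change was -0.41 (SE 0.22, 95% interval -0.90 to 0.08, limma adjusted p = 0.377), and -0.22 without MSC replicate 1. The gene spans 180176373 to 180225859 on chromosome 2, minus strand.

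Lama2, whose loss causes a muscular dystrophy in mice, varied most among the vehicle samples, at 10.2, 6.004, 3.86 and 2.96 RPKM. The MSC replicates were at 3.45, 2.94, 4.401 and 3.10 RPKM, within the range of the lower vehicle samples apart from replicate 2, which lay just below all of them. The log2 fold change was -0.49 (SE 0.28, 95% interval -1.13 to 0.15, limma adjusted p = 0.426), and -0.21 without vehicle replicate 1. The summed skeletal muscle markers were 491, 54.7, 4.77 and 109.5 RPKM in the vehicle replicates and 652, 638, 613 and 10.7 RPKM in the MSC replicates. Their part in the Lama2 values was not tested. Lama2 spans 26980036 to 27619758 on chromosome 10, minus strand.

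As a share of the summed RPKM of the member alpha chains, Lama4 made up 65.6, 73.9, 82.2 and 80.0% in the vehicle replicates and 79.7, 80.2, 72.5 and 79.0% in the MSC replicates. The groups overlapped: the mean share was 75.4 ± 7.42% in vehicle and 77.9 ± 3.58% in MSC veins (SD, n = 4 each). Lama5 made up 14.8 ± 2.66% and 14.2 ± 3.27%, and Lama2 9.78 ± 5.01% and 7.93 ± 1.58%. The composition differed between groups by less than the spread between samples, while within the vehicle group Lama2 ran from 5.50 to 16.2%. Without vehicle replicate 1 the difference in the Lama4 share, MSC minus vehicle, was -0.81 percentage points instead of 2.47, and that in the Lama2 share was 0.29 instead of -1.85. Per Lamc1, the summed alpha chains ran from 1.07 to 1.39 in vehicle and from 1.07 to 1.198 in MSC samples.

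**Figure D3:**
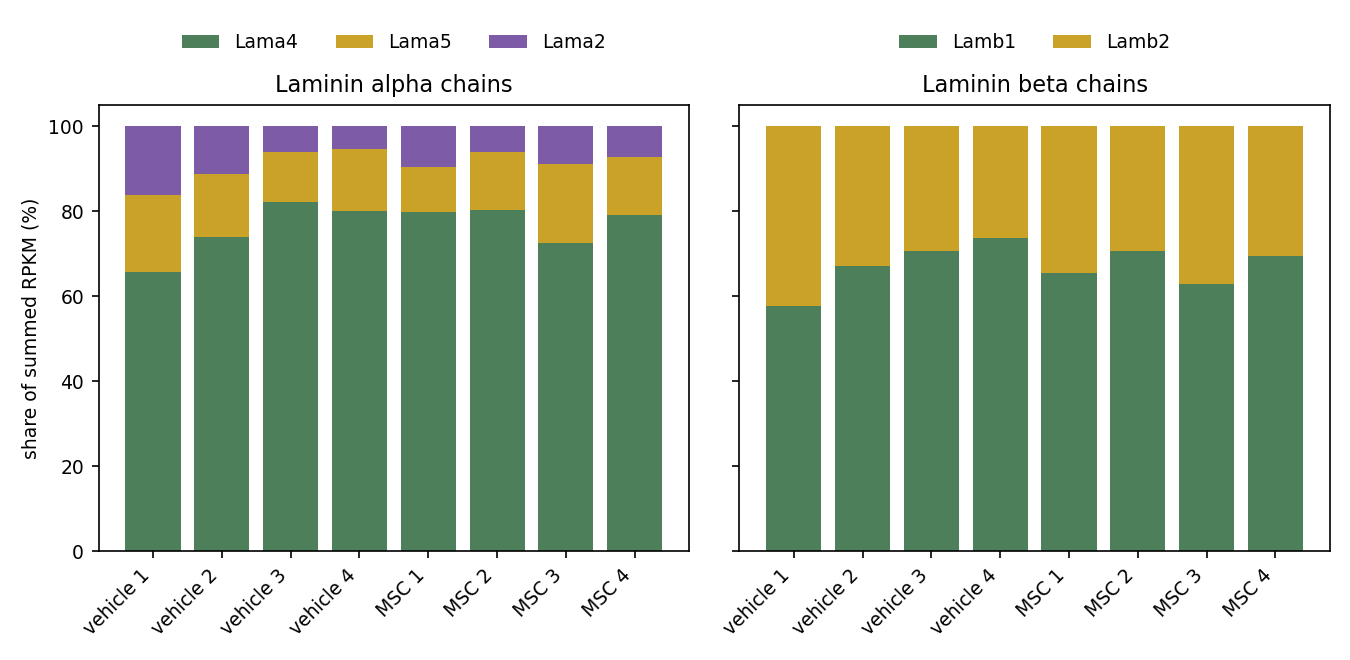
Share of each laminin chain in the summed RPKM of its class, in percent, for each sample. Left, alpha chains: Lama4 is the largest part in every sample, from 65.6 to 82.2%. Right, beta chains: Lamb1 is the larger part in every sample, from 57.6 to 73.8%.

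Of the beta chains, Lamb1 is the widespread one and Lamb2 is the chain of neuromuscular junctions, kidney glomeruli and smooth muscle. Lamb1 (chromosome 12, 31265234 to 31329644, plus strand) was at 43.0, 47.2, 54.5 and 48.9 RPKM in the vehicle replicates and at 31.2, 46.4, 38.8 and 40.9 RPKM in the MSC replicates. Only MSC replicate 2 lay inside the vehicle range. The log2 fold change of Lamb1 was -0.30 (SE 0.13, 95% interval -0.58 to -0.02, limma adjusted p = 0.277), and -0.20 without MSC replicate 1. Lamb2 (chromosome 9, 108479736 to 108490530, plus strand) was at 31.7, 23.2, 22.6 and 17.4 RPKM and at 16.5, 19.3, 22.9 and 17.9985 RPKM, in the same order. Here 3 of 4 MSC samples lay inside the vehicle range (log2 fold change -0.27, SE 0.17, 95% interval -0.65 to 0.11, limma adjusted p = 0.461). Without vehicle replicate 1 it was -0.13 for Lamb2. The Lamb1 share of beta chain RPKM was 67.3 ± 7.02% in vehicle and 67.1 ± 3.58% in MSC veins (SD, n = 4 each), and it was lowest in vehicle replicate 1 at 57.6%.

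The windows from 250 bases before to 50 after the RefSeq start (GRCm38.p6) of these beta chain genes are shown because their RNA levels differ in every sample within one trimer position. Capitals mark GC boxes, the letters GGGCGG or their reverse complement CCGCCC on either strand.
Lamb1, chr12:31265043-31265342, plus strand: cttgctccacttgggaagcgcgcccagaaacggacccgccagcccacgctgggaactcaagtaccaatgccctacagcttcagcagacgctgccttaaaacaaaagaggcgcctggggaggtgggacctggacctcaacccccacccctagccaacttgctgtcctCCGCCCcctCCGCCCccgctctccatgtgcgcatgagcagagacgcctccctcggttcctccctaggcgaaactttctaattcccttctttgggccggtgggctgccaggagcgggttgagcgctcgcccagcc
Lamb2, chr9:108479612-108479911, plus strand: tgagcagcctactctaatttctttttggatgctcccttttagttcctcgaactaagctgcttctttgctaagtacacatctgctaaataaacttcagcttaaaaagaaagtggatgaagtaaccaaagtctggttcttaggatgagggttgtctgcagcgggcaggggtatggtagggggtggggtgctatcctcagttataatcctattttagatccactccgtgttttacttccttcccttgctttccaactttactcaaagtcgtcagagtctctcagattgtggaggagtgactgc
The Lamb1 window holds 2 GC boxes, 18 CpG dinucleotides and 63.7% G and C, and the Lamb2 window holds 0 GC boxes, 4 CpG and 44.0% G and C. Among 32851 windows of this length in the table, 35.7% hold a GC box, and the median is 7 CpG and 52.7% G and C. A TATA box, searched as TATAAA or TTTATA, was in neither window and is in 13.6% of all. A match is only a run of letters, and its absence says nothing about a factor.

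Lamc1, the gamma chain of nearly all laminins and the one that carries the nidogen binding site, lies on chromosome 1 at 153218922 to 153332786, minus strand. It was at 58.7, 43.7, 48.5 and 38.6 RPKM in the vehicle replicates and at 30.9, 44.2, 41.5 and 40.0 RPKM in the MSC replicates. MSC replicate 1 was below all vehicle samples and the other 3 were inside their range. Between groups Lamc1 had a log2 fold change of -0.26 (SE 0.15, 95% interval -0.60 to 0.07, limma adjusted p = 0.412). It was -0.16 without vehicle replicate 1 and also -0.16 without MSC replicate 1.

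Nid1, the more abundant nidogen, was at 97.0, 92.3, 82.7 and 62.9 RPKM in the vehicle replicates and at 59.6, 71.7, 69.4 and 66.1 RPKM in the MSC replicates. Vehicle replicate 4 was the only vehicle sample not above all MSC samples. The means were 83.7 ± 15.1 and 66.7 ± 5.24 RPKM (SD, n = 4 each), and the difference was -0.31 on the log2 scale (SE 0.14, 95% interval -0.61 to -0.0019, limma adjusted p = 0.301). Nid2, the other nidogen, which can stand in for Nid1 in mouse, ran from 9.62 to 16.1 RPKM in vehicle and from 7.73 to 14.0 RPKM in MSC samples (log2 fold change -0.24, 95% interval -0.66 to 0.19, limma adjusted p = 0.570). That of Nid2 was -0.10 without MSC replicate 1, -0.13 without vehicle replicate 4, and -0.36 without either replicate 2 sample in turn. Nid1 made up 86.1 ± 4.80% of nidogen RPKM in vehicle and 86.0 ± 2.26% in MSC veins (SD, n = 4 each). Nid1 spans 13437551 to 13512269 on chromosome 13 and Nid2 spans 19751265 to 19811787 on chromosome 14, both on the plus strand. Exons of Nid1, Nid2 and Lama2 overlap Gm48682, Rtraf and Gm48084 on the opposite strand, so where counting ignored strand, which the sources used here do not state, reads of these pairs are mixed.

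The Nid1 window is shown beside those of the beta chains as that of the member with the highest level, with GC boxes in capitals.
Nid1, chr13:13437352-13437651, plus strand: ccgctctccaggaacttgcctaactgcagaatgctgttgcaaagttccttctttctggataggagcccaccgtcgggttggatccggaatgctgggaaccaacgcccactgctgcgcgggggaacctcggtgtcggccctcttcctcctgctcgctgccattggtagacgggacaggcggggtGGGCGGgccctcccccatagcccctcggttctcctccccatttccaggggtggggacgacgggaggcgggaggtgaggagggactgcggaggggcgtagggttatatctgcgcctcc
It holds 1 GC box, 20 CpG and 64.7% G and C. RefSeq windows matched 6 of the 10 members by symbol. Lama5 and Hspg2 hold 4 and 5 GC boxes and Lama2 holds 1, while Lama4, Lamc1, Nid2 and Smoc1 had no entry. The Lama2 window, chr10:27616893-27617192 on the minus strand, lies inside the gene span given above, downstream of its start.

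Hspg2, perlecan, binds growth factors through its heparan sulfate chains and restrains smooth muscle growth in vessels. It was at 63.6, 39.9, 45.8 and 52.3 RPKM in the vehicle replicates and at 25.0, 46.0, 51.4 and 45.3 RPKM in the MSC replicates. MSC replicate 1 stood alone below the rest, and the other 3 lay inside the vehicle range. The log2 fold change was -0.29 (SE 0.23, 95% interval -0.79 to 0.22, limma adjusted p = 0.562), -0.06 without MSC replicate 1 and -0.17 without vehicle replicate 1. Hspg2 spans 137468769 to 137570630 on chromosome 4, plus strand.

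The same sample was low across the members. MSC replicate 1 was the lowest MSC sample in 9 of the 10 members, where it was lowest in 43.6% of all genes tested, and vehicle replicate 1 was the highest vehicle sample in 6 of 10, against 25.2% of all genes. Without MSC replicate 1 all 10 log2 fold changes were still below 0, with a median of -0.21 against 0.06 over all genes tested, and without vehicle replicate 1 the median was -0.24. Summed endothelial markers were lowest in MSC replicate 1 (465 RPKM) and next lowest in MSC replicate 4 (504 RPKM). MSC replicate 1 also had the lowest pericyte sum (32.8 RPKM). Its sum of 6 macrophage markers was the highest, at 4955 RPKM against 2328 to 3620 RPKM in the other samples. Most of that sum was Lyz2 (4067 RPKM). Cd68, Csf1r and Itgam were also above every vehicle sample, while Emr1 and Mrc1 lay inside the vehicle range. The fibroblast sum (2000 RPKM) and smooth muscle sum (252 RPKM) of MSC replicate 1 lay inside the vehicle range. Of its smooth muscle markers, Myh11 (6.21 RPKM), Mylk (3.57 RPKM), Smtn (11.9 RPKM) and Myocd (0.105 RPKM) were below every vehicle sample. Des (48.3 RPKM) was above every vehicle sample, and Acta2, Tagln, Cnn1 and Lmod1 lay inside the vehicle range. The part of these cell types in the low values of the members was not tested.

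**Figure D4:**
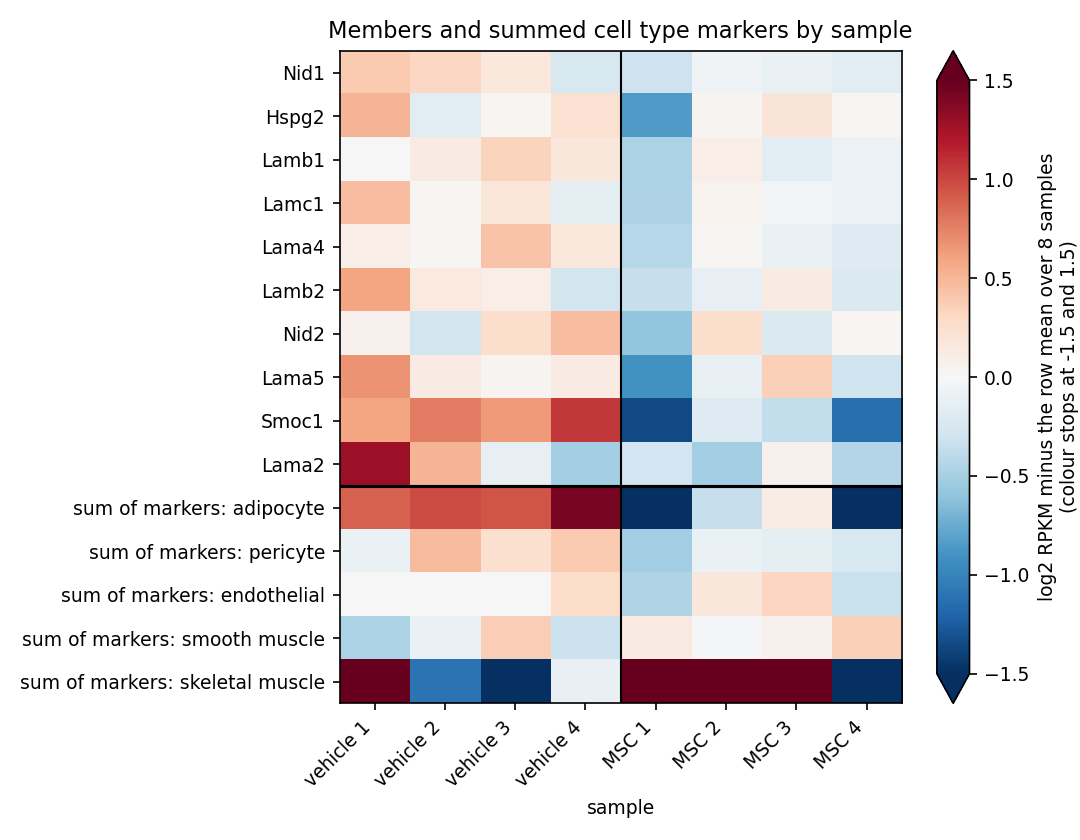
Log2 RPKM of each member, and of the summed markers of 5 cell types, minus its mean over the 8 samples, with colour from blue (lower) to red (higher). The column of MSC replicate 1 is blue in all 10 member rows. The row of Smoc1 and the row of adipocyte markers are red in all vehicle samples, and both are darkest blue in MSC replicates 1 and 4.

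Other basement membrane genes were counted from lists chosen with earlier results of these data known. Of all genes tested, 40.5% were below 0 and 4.17% did not overlap in the lower direction. An unadjusted limma p under 0.05 in that direction was found for 6.36%. Of 5 tested collagens of basement membranes, 3 had log2 fold changes below 0 and 0 passed (limma adjusted p of at least 0.155, with 2 at an unadjusted p under 0.05). Col4a1, the main network collagen, was at 104, 98.4, 145 and 109 RPKM in the vehicle replicates and at 49.6, 92.0, 81.4 and 68.9 RPKM in the MSC replicates, without overlap (log2 fold change -0.66, SE 0.19). Its partner Col4a2, encoded head to head beside it, had -0.49 (SE 0.17, limma adjusted p = 0.219), with overlap. Exons of this pair overlap each other on opposite strands only from 11312805 to 11312826 on chromosome 8. Only reads at that short stretch may be mixed between them. Exons of Col4a2 also overlap Gm15419 on the opposite strand. Col4a1 and Col4a2 were the genes most like Lama4 over the 8 samples, with Pearson r of 0.992 and 0.982 as a description. Smad1 (0.962), 4933439F18Rik (0.958) and Wwtr1 (0.956) followed.

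Of 8 other basement membrane proteins tested, 6 were below 0 and 0 passed in limma, with 2 at an unadjusted p under 0.05: Tinagl1, a secreted protein of vascular basement membranes (log2 fold change -0.47, limma adjusted p = 0.296), and Npnt, a ligand of integrins (-0.37, limma adjusted p = 0.201). Tinagl1 was the gene most like Lamc1 over the 8 samples (r = 0.977), followed by Rbbp6 (0.967), D18Ertd653e (0.965), Josd1 (0.960) and Sos2 (0.959).

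Of the 5 tested genes of the SPARC family outside the members, 3 were below 0 and 0 passed in limma, with 1 at an unadjusted p under 0.05. That was Sparcl1, a matrix protein of vessels, at 31.3, 49.7, 58.8 and 48.9 RPKM in the vehicle replicates and at 23.6, 36.6, 23.4 and 22.1 RPKM in the MSC replicates. Only MSC replicate 2 lay inside the vehicle range (log2 fold change -0.81, SE 0.21, limma adjusted p = 0.123). Spock2, a proteoglycan of the family, had -0.23 (SE 0.41, limma adjusted p = 0.821). Smoc2, the closest relative of Smoc1, was picked with its values known. It was at 14.4, 10.5, 8.41 and 7.21 RPKM and at 9.37, 10.4, 9.35 and 8.66 RPKM in the same order. All its MSC values lay inside the vehicle range (log2 fold change -0.05, 95% interval -0.44 to 0.34, limma adjusted p = 0.912).

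Of 14 tested receptors and receptor partners, 10 were below 0 and 0 passed in limma, with 3 at an unadjusted p under 0.05. Sgcd, a sarcoglycan of the complex that anchors laminin through dystroglycan in smooth and striated muscle, was at 7.52, 7.83, 8.19 and 8.67 RPKM in the vehicle replicates and at 5.04, 4.57, 6.63 and 4.02 RPKM in the MSC replicates. The groups did not overlap (log2 fold change -0.59, SE 0.12, limma adjusted p = 0.0805). Utrn, which ties that complex to actin, also did not overlap, at 16.4 to 17.9 RPKM in vehicle and 9.95 to 15.9 RPKM in MSC samples (log2 fold change -0.41, 95% interval -0.70 to -0.12, limma adjusted p = 0.175). Itga7, a laminin-binding integrin chain of muscle, was also picked with its values known. It was at 18.5, 9.90, 13.5 and 13.0 RPKM and at 2.85, 10.1, 9.75 and 4.01 RPKM in the same order. MSC replicates 1 and 4 were the lowest (log2 fold change -1.06, SE 0.35), without passing (limma adjusted p = 0.185), and exons of Itga7 overlap Mettl7b on the opposite strand.

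**Figure D5:**
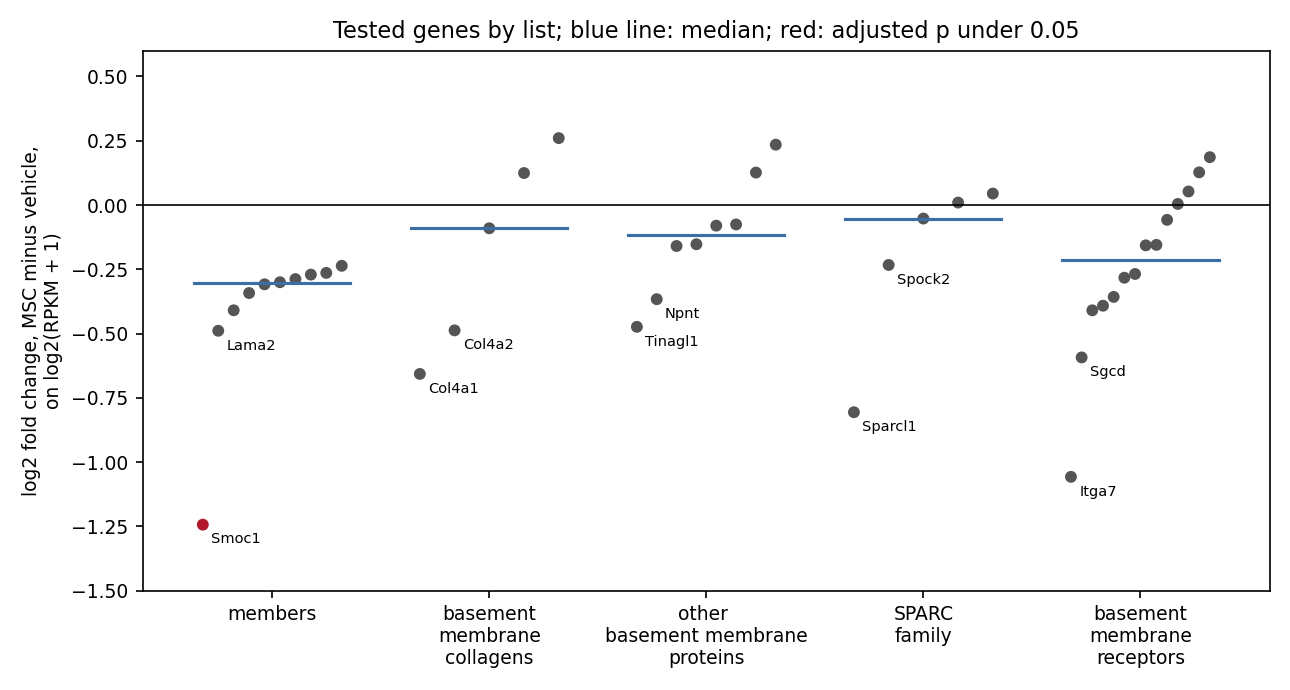
Log2 fold change, MSC minus vehicle, on log2(RPKM + 1), of each tested gene in the members and in 4 lists of related genes, sorted within each list. Blue lines are medians and the lowest 2 genes of each list are named. Smoc1, in red, is the gene past the adjusted p threshold, and the members' median is at -0.30.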

How the data were processed

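RNA of fistula outflow veins was sequenced from 0.5 µg of total RNA per sample with the TruSeq V2 kit, per the labels' protocols. The values the authors deposited are RPKM, 1 column per sample. Per the submitters' processing notes, mm10 was the genome build. Not given in the sources used here: aligner, counter, annotation, strand and filters.

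RPKM are not counts, so log2(RPKM + 1) was tested 2-sided with limma 3.58.1 under R 4.3.3, using a mean-variance trend and no covariate. P-values were adjusted by Benjamini-Hochberg over 12129 genes averaging 1 RPKM or more in the 8 samples. RPKM steps gave whole reads for 100.0% of 143006 values above 0, within 0.001 reads. Such reads are too low for a gene whose counts have a common divisor, and voom on them was an alternative chosen after seeing the data. Other alternatives were the pseudocount, filter, scaling, replicate block, variance trend, sample weights, an adipocyte covariate and leaving out each sample. The scripts were tested on simulated data. The closest replicates (MSC 2 and 3) had a chi-square of 32.8 per degree of freedom, above counting noise.

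The members and lists were chosen with earlier results of these data known. All members were named, and of each list of related genes those past the threshold and the 2 with the lowest unadjusted p. For Smoc1, Lama4 and Lamc1 the 5 genes with the highest Pearson correlation were named. Some genes of the lists are not reported here. Chain shares are shares of summed RPKM with no test. Coordinates are those of GENCODE vM21 (GRCm38, the assembly behind mm10). Promoter windows are from RefSeq.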

Additional observations from a re-analysis of the deposited data

Results flagged for a closer look

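In 44 groups of 4 samples (the members' RPKM, chain shares and ratios to Lamc1), 3 had a sample far from the other 3, where chance gives about 1 in 20. Lama5 in vehicle replicate 1 was at 11.5 RPKM, against 7.41 to 7.84 RPKM in the other vehicle samples. The Lama4 share of alpha chain RPKM in MSC replicate 3 was 72.5%, against 79.0 to 80.2% in the other MSC samples. Nidogen RPKM per Lamc1 RPKM in MSC replicate 1 was 2.18, against 1.92 to 1.95 in the other MSC samples.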

How the results depend on the processing

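The 10 members' log2 fold changes were below 0 in 176 of 179 values over 18 alternatives (Lama2 was not tested at a mean of at least 5 RPKM). These values are not independent, since every alternative draws on the same 8 samples. The changes of filter, the replicate block and the fit with no variance trend cannot alter a log2 fold change here, so their values repeat the main ones. The 3 values above 0 came with the adipocyte score as a covariate: Hspg2 0.19, Lama5 0.18 and Nid2 0.0026. Smoc1 ran from -1.53 (voom) to -0.52 (that covariate), and it passed under 6 of the 18 alternatives. The number of members called was 1, and it was 0 with a pseudocount of 0.1, no filter on low values, the replicate block, no variance trend and the adipocyte covariate, and 0 to 1 with a sample left out. The cause was not tested. The number of genes called, 28 in the main test, was 10 with a pseudocount of 0.1, 1 with no filter, 59 with equal RPKM sums, 72 with median-of-ratios scaling, 0 with the replicate block (1768 with an unadjusted p under 0.05 in limma), 73 with sample weights, 0 with the adipocyte covariate (619 unadjusted) and 37 with voom, and 0 to 170 with a sample left out. Counts of 0 came without vehicle replicate 2 and without MSC replicate 4. The replicate numbers are not known to pair samples: deviations of same-numbered samples correlated from -0.33 to 0.14, and no vehicle sample correlated best with its own number. With the block, Smoc1 had a limma adjusted p of 0.110. Differences in chain shares, when a sample was left out, ranged from -0.81 to 4.72 percentage points for Lama4, from -2.09 to 0.55 for Lama5, from -3.28 to 0.29 for Lama2 and from -3.41 to 1.98 for Lamb1. With 4 samples per group, the 95% intervals of 6 members include 0.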

Other observations

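Lama3 and Lamb3, laminin chains of epithelial basement membranes, and Lama1 were close to 0. They reached at most 0.323, 0.195 and 0.0849 RPKM in any sample. Epithelial markers were low as well, with a sum over 4 genes of at most 1.06 RPKM. Lamc3, a gamma chain known from nerve and retina and singled out after its values were seen, had 35, 35, 26 and 49 reads in vehicle replicates 1 to 4 and 0, 16, 18 and 1 reads in MSC replicates 1 to 4. The groups did not overlap, but the gene was under the filter on low values and was not tested.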
